A study of Apis mellifera ligustica with 12 samples.

Results

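Bantam is a growth-promoting miRNA of insects, and the honeybee files list both strands of its hairpin under separate names. The members described here are the entries ame-bantam-3p and bantam-x, 2 of the 1350 miRNAs listed, chosen by their names. The suffix x marks, in the naming of the files, a 5p strand known from other species, so that bantam-x is the 5p arm and ame-bantam-3p the 3p arm. Small RNA was sequenced from 12 libraries of Apis mellifera ligustica worker brain, 3 for each of 4 groups. CK libraries came from untreated bees, and D10, D20 and D30 libraries (X1D10, X1D20 and X1D30 in the sample labels) came from foragers caught 10, 20 and 30 days after fluvalinate, a pyrethroid acaricide, was first placed in the hive. Each library was a pool of brains of 1 colony. The paper describes the bees as adult workers, taken as returning foragers in every colony, and gives no age in days. The paper treats CK as the sampling before administration, although it also had control colonies and does not specify which colonies CK came from. A difference from CK may thus follow the treatment or the date of sampling, which cannot be told apart here. In the paper's scheme the same colonies were sampled at each time, so the groups may share colonies, but the labels do not link libraries to colonies and the tests treat the 12 libraries as independent.

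A miRNA hairpin is cut into a duplex of both arms, one strand of which is usually loaded into an Argonaute protein and pairs with target mRNAs through its seed, bases 2 to 8, while the other is mostly degraded. In Drosophila, bantam is known for driving tissue growth and for protecting cells from death by repressing the pro-apoptotic gene hid. It is switched on there by Yorkie, the effector that Hippo signalling restrains, and it acts also in the nervous system, in the growth of sensory dendrites and in the circadian clock. The 3p strand is the one that carries these known functions.

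The sequences of both arms are shown because they decide which other listed entries can be confused with them, with the seed in capitals and 5′ to 3′ as the files give them, in DNA letters.
ame-bantam-3p: tGAGATCAttgtgaaagctgatt
bantam-x: cTGGTTTTcacaatgatttgac
The 3p strand had 23 bases and the 5p strand 22. Folded against each other with RNAduplex, the strands formed 17 base pairs in 1 run without a bulge, 14 of them Watson-Crick and 3 G-U, with a predicted energy of -22.2 kcal per mol. The next lines show the paired bases in capitals.
bantam-x, paired bases: ctGGTTTTCACAATGATTTgac
ame-bantam-3p, paired bases: tgAGATCATTGTGAAAGCTgatt
The pairing took in 6 of the 7 seed bases of ame-bantam-3p. The hairpin gene bantam (gene ID 732515) spans 87 bases, 10404334 to 10404420, of linkage group 14 in RefSeq's annotation of Amel_HAv3.1, to which the authors mapped their reads. No other annotated gene overlaps it. The nearest genes are the protein-coding LOC410567, which ends 20122 bases before it, and the protein-coding LOC727284, which begins 5195 bases after it. The nearest other annotated miRNA hairpin, Mir3790, is 524514 bases away, so bantam is not part of a miRNA cluster in this annotation.

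The libraries held between 8454313 and 15979901 counts on listed miRNAs, so that 3 counts correspond to 0.188 to 0.355 CPM (counts per 1000000). Library D30-3 stood apart in the number of listed miRNAs with a count, 837 against 510 to 626 in the other libraries. The neuronal miRNAs ame-miR-124-3p, ame-miR-137-3p and ame-miR-1000-5p were counted in each library, with a summed level between 17383 TPM (CK-1) and 35936 TPM (D10-2). The muscle miRNAs ame-miR-1-3p and ame-miR-133-3p and the gut-associated miR-281 pair were also counted in each library, at summed levels of 2981 to 5036 TPM and 191 to 779 TPM, so that the neuronal sum was the highest of the 3 and the other tissues' markers were not absent. In pooled tissue, fewer cells of a type and less RNA per cell cannot be told apart. TPM here is the deposited value, a count scaled to a library total without length correction, and each level below is on that scale unless stated.

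The 3p arm was one of the most abundant miRNAs of the brain and no change with treatment was detected. It had 1696167 counts in all, 1.10% of the counts on listed miRNAs, and was rank 12 of the list by mean TPM, with 10151 ± 3055 TPM (SD, n = 12). Ame-miR-11-3p, the next above it, had 15495 ± 765 TPM and exceeded it in all but 1 library. Ame-miR-932-5p, the next below, had 9628 ± 2473 TPM and was exceeded by it in 7 of 12 libraries, so that the order of these neighbours was not clear of their spread. Its share of a library was between 0.755% in D10-1 (Wilson 95% interval 0.750% to 0.759%) and 2.05% in D10-2 (2.04% to 2.05%), and such Wilson intervals, here and below, are for counting error alone, as amplified reads carry no molecular identifiers.

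Ame-bantam-3p had 10739, 10386 and 9523 TPM in the CK libraries and 6908, 18805 and 9244 TPM in the D10 libraries. The D20 libraries had 8331, 10390 and 8855 TPM and the D30 libraries 7143, 11392 and 10097 TPM. The CK libraries lay close together, with an SD of 6.12% of their mean, whereas the D10 libraries spread over a 2.72-fold range, and all groups overlapped. The D10 range ran from D10-1, the lowest of all libraries, to D10-2, which exceeded every other library. D10-2 also had the highest summed level of the neuronal miRNAs, and whether its 2 high levels share a source was not tested.

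In edgeR's quasi-likelihood test the log2 fold change of ame-bantam-3p was 0.20 in D10 against CK (SE 0.34, 95% interval -0.55 to 0.96, adjusted p = 1). It was -0.07 in D20 against CK (SE 0.34, interval -0.82 to 0.68, adjusted p = 1) and -0.09 in D30 against CK (SE 0.34, interval -0.84 to 0.66, adjusted p = 0.969). The intervals thus leave room for a change of up to nearly 2-fold in either direction. Between treated days it was -0.27 in D20 against D10, -0.29 in D30 against D10 and -0.02 in D30 against D20, with adjusted p between 0.708 and 1. Without D10-2 the value for D10 against CK was -0.34, the opposite sign, and D20 and D30 against D10 were 0.27 and 0.25. In an exact permutation test over all 369600 assignments of the libraries to the 4 groups, the groups accounted for 6.17% of the spread of log2(TPM + 1) of ame-bantam-3p (p = 0.941).

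The 5p arm was scarce, and its levels in D20 and D30 lay below those in CK and D10, although the fit over all miRNAs did not call the difference. Bantam-x had 441 counts over the 12 libraries, between 12 and 63 in each, and was rank 279 with 2.64 ± 1.03 TPM (SD, n = 12). MiR-149-y, the next above it at 2.74 ± 1.66 TPM, and ame-miR-3782-5p, the next below at 2.63 ± 1.09 TPM, were each exceeded by it in 6 of 12 libraries, so that none of the 3 levels differed from its neighbours beyond its spread. At such counts, counting error alone gives a relative SD of 12.6% at the highest count and 28.9% at the lowest, against 0.194% to 0.324% for the 3p arm.

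Bantam-x had 36, 63 and 52 counts in the CK libraries, or 3.91, 4.20 and 3.44 TPM. In D10 it had 57, 43 and 29 counts, or 3.66, 3.04 and 2.66 TPM. In D20 it had 18, 27 and 12 counts, or 1.57, 1.67 and 1.10 TPM, and in D30 it had 24, 34 and 46 counts, or 1.54, 2.19 and 2.65 TPM. Every D20 library and every D30 library was below each CK and each D10 library, with D30-3 at 2.65 TPM just under D10-3 at 2.66 TPM. CK and D10 overlapped, as did D20 and D30. CK averaged 3.85 ± 0.385 TPM, D10 3.12 ± 0.501, D20 1.45 ± 0.304 and D30 2.13 ± 0.556 (SD, n = 3 each). The plot of both arms by library shows the overlapping levels of the 3p arm beside the lower D20 and D30 levels of the 5p arm.

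**Figure D1:**
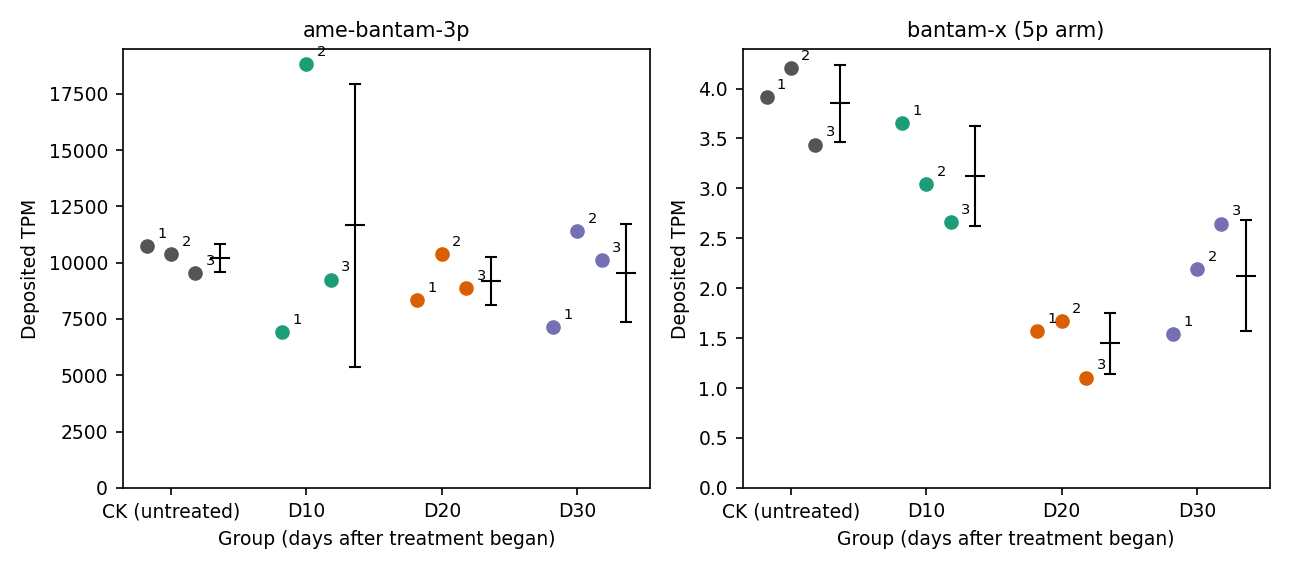
Deposited TPM of ame-bantam-3p (left) and bantam-x (right) in each of the 12 libraries, by group, with replicate numbers beside the points and the group mean ± SD (n = 3) as black bars. The 3p arm overlaps between all groups and D10-2 reaches 18805 TPM, while bantam-x is at or below 2.65 TPM in each D20 and D30 library and above that in each CK and D10 library.

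In D20 against CK, the log2 fold change of bantam-x in edgeR's quasi-likelihood test was -1.32 (SE 0.32, 95% interval -2.04 to -0.60, adjusted p = 0.537 over 787 tested miRNAs), a level 0.400 times that of CK. By unadjusted p it was rank 2 of the 787. It was not called, as was no other miRNA in that comparison, so that the share called was 0%, with 32 miRNAs (4.07%) at an unadjusted p under 0.05. DESeq2 called 2 of the 391 miRNAs left there by its own filter, bantam-x among them (log2 fold change -1.33, adjusted p = 0.0113). EdgeR's classic exact test called 0. A quasi-likelihood fit of the CK and D20 libraries alone also called bantam-x (-1.36, adjusted p = 0.0495, 3 of 541 tested miRNAs called). Both calls were thus adjusted over fewer miRNAs than the 787. Over the alternatives other than leaving out a library, the adjusted p was between 0.0113 and 1. The groups did not overlap in D20 against CK, as was the case in the lower direction for 7.75% of the tested miRNAs. The paper, with edgeR and the same thresholds, lists bantam-x as differentially expressed between sampling times. The quasi-likelihood fit used here did not reproduce that call in any comparison, and the paper states neither its filter nor its normalization.

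In D30 against CK the log2 fold change of bantam-x was -0.84 (SE 0.32, interval -1.55 to -0.13, adjusted p = 0.516 from the same edgeR test), with 0% of miRNAs called (6.86% at an unadjusted p under 0.05, and 1 called by DESeq2) and groups that did not overlap, as for 4.45% of miRNAs in the lower direction. Without D30-3, the library with the most entries, it was -1.11. In D10 against CK it was -0.30 (SE 0.32, interval -1.01 to 0.40, adjusted p = 1), with 0% called (6.1% at an unadjusted p under 0.05, 6 called by DESeq2). In D20 against D10 it was -1.02 (SE 0.32, interval -1.74 to -0.30, adjusted p = 0.608). The groups again did not overlap, as for 6.1% of miRNAs in the lower direction, and 0% were called (6.1% at an unadjusted p under 0.05, 5 called by DESeq2). In D30 against D10 it was -0.54 (adjusted p = 0.438), also without overlap, as for 3.56% of miRNAs, with 0% called (11.2% unadjusted, 2 by DESeq2). In D30 against D20 it was 0.48 (interval -0.23 to 1.20, adjusted p = 0.546), with 0% called (7.62% unadjusted, 0 by DESeq2). No value here separates a partial return at D30 from a level equal to that of D20.

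The groups accounted for 85.4% of the spread of bantam-x in log2(TPM + 1), which an exact permutation test over the 369600 assignments to 4 groups gave p = 0.000909 (the smallest possible is 6.49e-05). This p is not adjusted, and the paper had already picked bantam-x on these libraries as a differentially expressed miRNA, so that it is no independent evidence. An exact test of 3 libraries against 3 cannot go below 0.1, and bantam-x reached this value in D20 and D30 against CK and in D20 and D30 against D10. From the study's sequencing table the libraries were split here by read quality, not by read number, into a higher and a lower kind. The paper does not make this split. Each D20 library is of the higher kind. Among libraries of that kind, with CK-1 as the single CK library, the log2 ratio of bantam-x in D20 to CK was -1.34, and with that kind as a term in the edgeR fit it was -1.40 (adjusted p = 1). For D30 to CK it was -0.45 among these libraries (1 against 1) and -1.09 among the others (2 against 2). The summed muscle miRNAs moved in the same direction, with 2981 to 3591 TPM in D20, against 3869 to 4637 TPM in CK, without overlap. The neuronal sum was 21712 to 27390 TPM in D20, against 17383 to 23929 TPM in CK, and the gut-associated sum was 245 to 330 TPM in D20, against 198 to 300 TPM in CK, both with overlap. Against D10, in turn, the gut-associated sum was lower without overlap, with 245 to 330 TPM in D20, against 562 to 779 TPM in D10, while the muscle and neuronal sums overlapped. In D30 the gut-associated sum was 191 to 665 TPM and the muscle sum 3127 to 5036 TPM, both overlapping CK and D10. The part of these tissues in the bantam-x results was not tested.

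**Figure D2:**
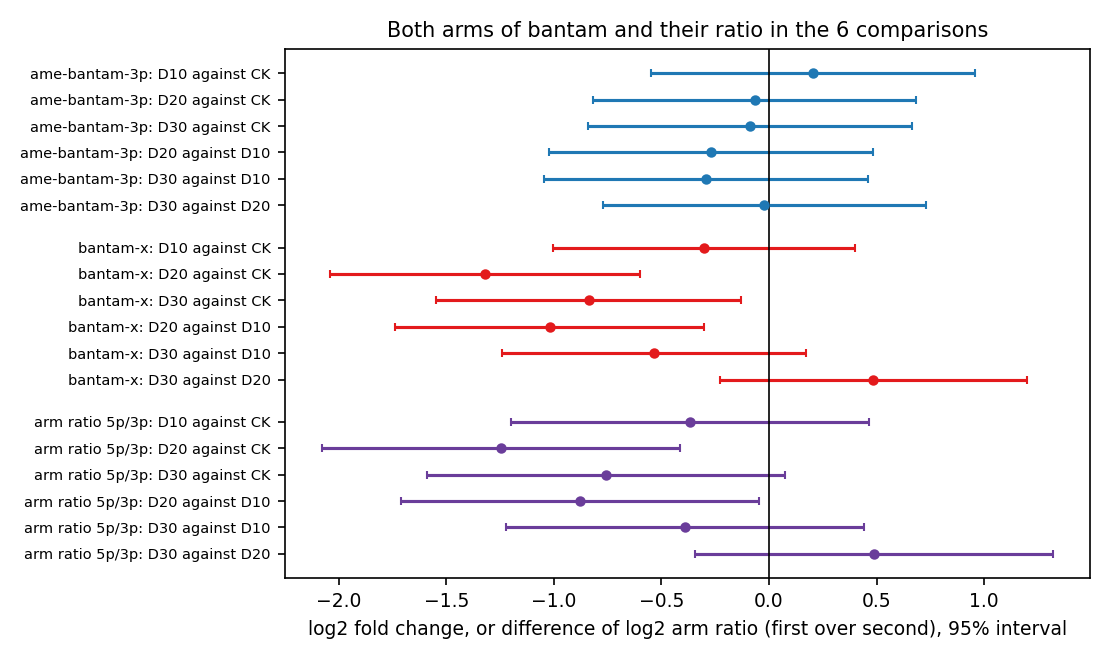
Log2 fold changes of ame-bantam-3p and bantam-x (edgeR's quasi-likelihood test) and differences of the log2 ratio of 5p to 3p arm (limma) in the 6 comparisons, first group over second, with 95% intervals. The intervals of ame-bantam-3p all include 0, and those of bantam-x lie below 0 in D20 against CK, D30 against CK and D20 against D10, where none of the adjusted p-values is under 0.05.

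The ratio of the arms within a library needs no scaling between libraries, and it was strongly in favour of the 3p arm throughout. In CK there were 2743, 2472 and 2769 reads of ame-bantam-3p for each read of bantam-x. In D10 there were 1890, 6182 and 3471, in D20 5303, 6218 and 8035, and in D30 4637, 5206 and 3814. Written as bantam-x reads per 1000000 reads of both arms, CK had 364, 404 and 361, D10 had 529, 162 and 288, D20 had 189, 161 and 124, and D30 had 216, 192 and 262. The CK libraries had an SD of 6.41% of their mean, and their intervals overlapped. This SD is below the 12.6% that counting error alone gives at the highest bantam-x count, so it is no measure of the spread between colonies. The D10 libraries ranged from D10-1, with the highest share (Wilson 95% interval 408 to 685), to D10-2, with one at the level of D20 (120 to 218). The interval of D10-1 overlapped those of each CK library and of D10-3, so its share was not clear of theirs even by counting error. In D10-2 the low share went with a high 3p level, since its bantam-x level of 3.04 TPM lay between those of the other D10 libraries.

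**Figure D3:**
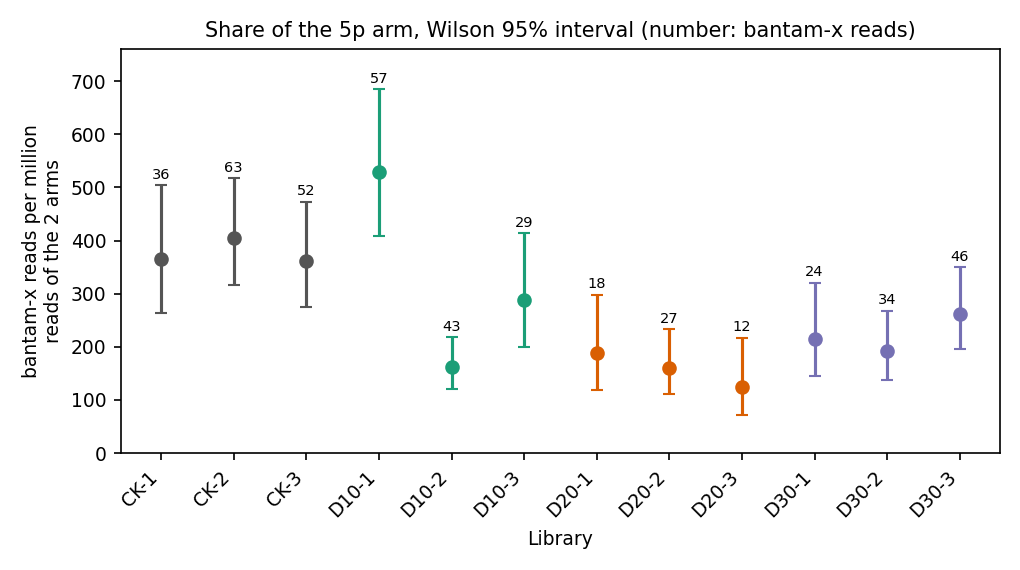
Reads of bantam-x per 1000000 reads of bantam-x and ame-bantam-3p together in each library, with Wilson 95% intervals for counting error and the number of bantam-x reads above each point. The CK libraries sit at 361 to 404, the D20 libraries at 124 to 189 and the D30 libraries at 192 to 262, while D10 runs from 162 to 529.

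The arm ratio was tested with limma over the 50 honeybee hairpins with at least 10 counts on each arm. In D20 against CK the log2 ratio of 5p to 3p was lower by 1.25 for bantam (difference -1.25, SE 0.38, 95% interval -2.08 to -0.41), a ratio 0.421 times that of CK, with an adjusted p of 0.122. It was rank 3 of 50 by p, and 1 hairpin (2%) was called. The 3 D20 libraries were all below the 3 CK libraries, as for 14% of hairpins in the lower direction. In D30 against CK the difference was -0.76 (SE 0.38, interval -1.59 to 0.07, adjusted p = 0.743), with 2% of hairpins called, again without overlap, as for 12% of hairpins. In D10 against CK it was -0.37 (interval -1.20 to 0.46, adjusted p = 0.696), with 4% called, and without D10-2 it was 0.057. In D20 against D10 it was -0.88 (interval -1.71 to -0.05, adjusted p = 0.408), in D30 against D10 -0.39 (adjusted p = 0.577) and in D30 against D20 0.49 (interval -0.34 to 1.32, adjusted p = 0.812), with 0% of hairpins called in each. D30 lay above D20 without overlap, as for 8% of hairpins in the higher direction. With single libraries left out, the adjusted p of the D20 difference from CK in limma was between 0.0261 and 0.481. It was under 0.05 in 2 of the 12 omissions, without D10-1 (0.0323) and without D10-2 (0.0261), with the same difference of -1.25 and 2 of 50 hairpins called in each. It was highest without D20-3 (0.481, difference -1.09).

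Over the 4 groups, the exact permutation test of the arm ratio gave p = 0.0615, with 59.6% of the spread between groups. With single libraries left out, the exact p was 0.0142 without D10-1 and 0.00331 without D10-2. For the other 10 omissions it was between 0.0790 and 0.161, highest without D20-3. The exact p-values of the ratio are not adjusted. The ratio includes bantam-x, which the paper had already picked on these libraries. Neither these p-values nor the limma ones of the ratio are thus independent evidence. With the kind of library by read quality as a term, the D20 difference from CK was -1.03 (adjusted p = 0.524 from limma). In the other 49 hairpins the log2 ratio of minor to major arm differed between D20 and CK by a median of -0.07, and 2 of the 49 had a lower value than bantam. In D30 against CK this median was 0.03, also with 2 of 49 below bantam.

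Among the 50 hairpins bantam was one of the most one-sided. Summed over the 12 libraries, the 5p arm took 0.0260% of its reads, rank 5 from the lowest share of a minor arm, against a median of 1.27% over the 50. Hairpins with under 10 counts on either arm are left out, and so low a share can be seen only in an abundant hairpin. The rank and the median thus depend on this filter and on abundance. The hairpins on either side in this order were miR-2, with 0.0226% on the 5p arm, and miR-275, with 0.0433%. The 3p arm was the major one in 31 of the 50 hairpins and the 5p arm in 19. These pairs were matched by name, so an entry known from another species stands for the second arm in most of them, as bantam-x does for bantam.

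**Figure D4:**
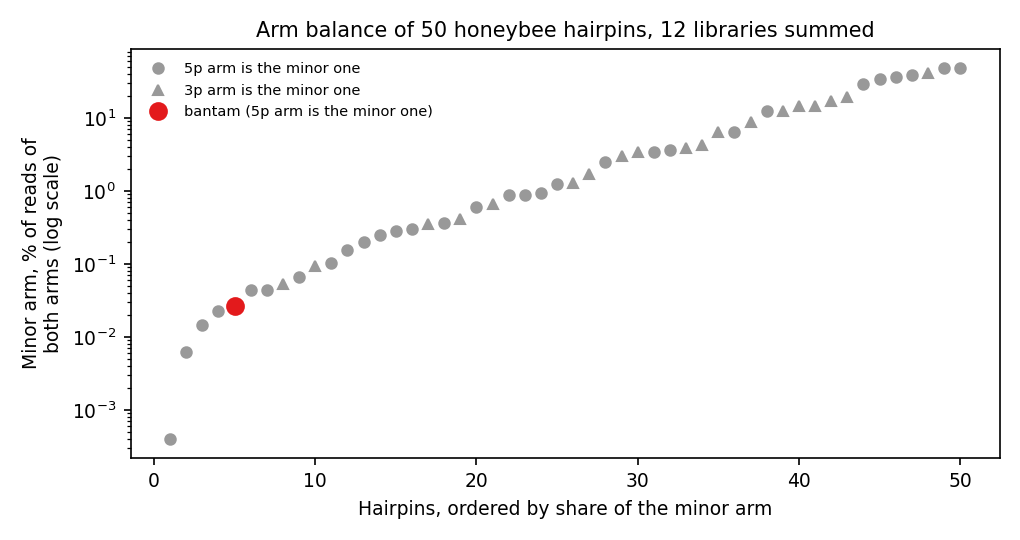
Share of the minor arm among the reads of both arms, on a log axis, for 50 honeybee hairpins with the 12 libraries summed, ordered from the lowest share. Circles are hairpins whose 5p arm is the minor one, triangles those whose 3p arm is, and the red circle is bantam, at 0.0260% at rank 5.

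Other entries with the seed of ame-bantam-3p are shown because they may hold reads of the same strand. Each is given with the seed in capitals.
bantam-y: tGAGATCAttgtgaaagctgaaa
miR-81-y: tGAGATCAttgtgaaagaa
miR-1021-x: tGAGATCAtgtgaaagct
Bantam-y is the 3p strand known from other species and shares its first 21 bases with ame-bantam-3p, from which it differs at T22A and T23A, counted from the 5′ end of ame-bantam-3p. MiR-81-y, of a family that has the bantam seed in Caenorhabditis elegans, shares the first 17 bases and differs at C18A and T19A, so that both entries are a shorter or equal piece of bantam followed by a pair of A. MiR-1021-x shares the first 9 bases and had 0 counts in all 12 libraries. No other listed entry has the seed of bantam-x. Of all reads with the bantam 3p seed, 99.8% were on ame-bantam-3p, 0.206% on bantam-y and 0.0138% on miR-81-y, so the sum of these entries moved as ame-bantam-3p did.

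Although rare beside ame-bantam-3p, bantam-y outnumbered the 5p arm in each library, with 3.94 to 28.5 reads for each bantam-x read. Its level was 15.4, 22.7 and 31.4 TPM in the CK libraries, 29.2, 25.8 and 13.1 TPM in the D10 libraries, 14.6, 16.6 and 31.4 TPM in the D20 libraries and 11.3, 17.2 and 20.4 TPM in the D30 libraries, and all groups overlapped. Relative to 1000 reads of ame-bantam-3p it had 1.44, 2.19 and 3.29 reads in CK, 4.23, 1.37 and 1.42 in D10, 1.75, 1.60 and 3.55 in D20, and 1.58, 1.51 and 2.02 in D30. Libraries of 1 group thus differed by up to 3.08-fold in this ratio, with CK-3, D10-1 and D20-3 high. Its log2 fold change in edgeR's quasi-likelihood test was -0.06 in D20 against CK (SE 0.43, adjusted p = 1) and -0.49 in D30 against CK (SE 0.43, adjusted p = 0.647). The much scarcer miR-81-y, with 235 counts in all, had a log2 fold change of -0.53 in D20 against CK (SE 0.45, adjusted p = 1) and -0.76 in D30 against CK (SE 0.45, adjusted p = 0.516).

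**Figure D5:**
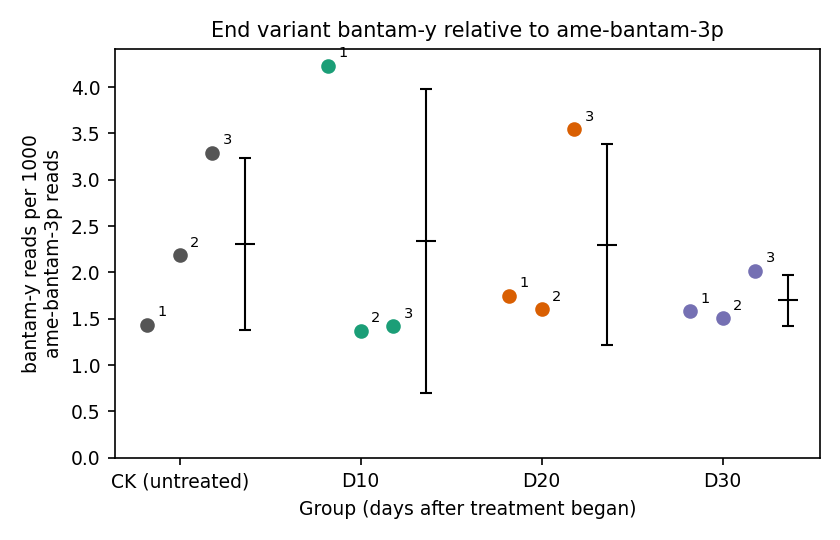
Reads of bantam-y per 1000 reads of ame-bantam-3p in each library, by group, with replicate numbers beside the points and the group mean ± SD (n = 3) as black bars. The ratio runs from 1.37 in D10-2 to 4.23 in D10-1 and overlaps between all groups.

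Over the 12 libraries the levels of both arms were only loosely related. In log2(TPM + 1), Pearson's r between ame-bantam-3p and bantam-x was 0.253 (permutation p = 0.45, n = 12) and Spearman's rho 0.308 (permutation p = 0.333). Without D10-2 and D10-1, the libraries farthest from the median of the 3p arm, r was 0.540, and with the group means removed it was 0.142. This was the single such relation tested.

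The miRNAs with the most similar levels over the 12 libraries differed between the arms, among 388 candidates counted in every library. For ame-bantam-3p they were ame-miR-307-3p (r = 0.917), miR-6038-y (r = 0.878) and ame-miR-3786-5p (r = 0.853), with Spearman's rho of 0.699, 0.769 and 0.664. The most opposite by r were miR-251-x (r = -0.763, rho = -0.322), miR-190-x (r = -0.757, rho = -0.385) and miR-252-x (r = -0.741, rho = -0.545). Their rho was thus weaker than their r. For bantam-x the most similar were ame-miR-315-5p (r = 0.833, rho = 0.923), miR-1-y (r = 0.826, rho = 0.762) and the predicted m0184-5p (r = 0.815, rho = 0.811). The paper lists miR-1-y and m0184-5p, like bantam-x, as differentially expressed in these libraries, so their likeness is no independent finding. MiR-1-y also bears the name of the muscle miRNA miR-1. The most opposite were miR-929-y (r = -0.896, rho = -0.916), the predicted m0005-3p (r = -0.833, rho = -0.832) and the predicted m0044-5p (r = -0.783, rho = -0.874). These are descriptions of libraries that share depth, group and a common scaling, chosen as extremes of the 388.

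Other miRNAs that act on growth or cell death in Drosophila were listed as 11 honeybee entries, all tested. They include ame-miR-14-3p, a suppressor of cell death, at 24592 ± 5320 TPM (SD, n = 12), ame-miR-11-3p and ame-miR-2-3p, which repress pro-apoptotic genes in the fly, at 15495 ± 765 and 9555 ± 708 TPM, and ame-miR-8-3p, a regulator of body growth, at 1918 ± 548 TPM. Ame-miR-278-3p, which acts on energy balance, was the scarcest at 128 ± 41.6 TPM. Together with ame-bantam-3p these made 12 entries, among which it was rank 3 by TPM. In each of the 6 comparisons, 0 of the 11 rose and 0 fell in edgeR's quasi-likelihood test, the same 0% as over all 787 miRNAs. The median log2 fold change of the 11 was -0.03 in D20 against CK, where the median over all tested miRNAs was 0, and -0.02 in D30 against CK, where that median was 0.25. The lowest of the 11 in D20 against CK was ame-miR-9a-5p, which guards sensory organ precursors in the fly, with -0.60 (SE 0.25, adjusted p = 1), and the highest ame-let-7-5p with 0.25. None of the 11 had a log2 fold change as low as that of bantam-x in this comparison.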

How the data were processed

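Small RNA from 12 libraries of pooled worker brains was analysed, 3 for each of CK, D10, D20 and D30, grouped by the sample titles. The authors discarded reads of low quality, short inserts, polyA reads and tags seen once, then other small RNAs (Blastall, Rfam) and tags from exons, introns or repeats, and assigned tags to miRBase entries (Bowtie) and to hairpins predicted by MIREAP. The authors deposited counts per listed miRNA, without normalization, and TPM, which sums to 914748 to 927064 over the list, so that its denominator holds more than the listed counts, and which gives 0.01 for a count of 0. How reads that fit several entries were assigned is not given in the sources used here. The smallest count above 0 was 2. A supplementary table of the study gives for bantam-x a total above the sum of its library counts, which are those of the deposited files and were used here.

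Counts were tested in edgeR 4.0.16 under R 4.3.3 (F test of the quasi-likelihood fit, TMM, all 12 libraries in 1 fit of 4 group means, 787 miRNAs with at least 10 counts), with a differentially expressed miRNA defined, as in the paper, by an adjusted p under 0.05 and an absolute log2 fold change above 1, with Benjamini-Hochberg adjustment in each comparison. Standard errors were computed from the log2 fold change and the F statistic. Arm ratios, log2 of counts with 0.5 added to each arm, were tested with limma 3.58.1 (trend) over 50 hairpins, called at an adjusted p under 0.05. A 5p arm was the honeybee 5p entry or else the x entry of that name, and a 3p arm the honeybee 3p entry or else the y entry. Exact permutation tests over 4 groups used the between-group sum of squares, the 3-against-3 tests are two-sided, and the correlations used 100000 permutations (scipy 1.17.1, numpy 2.4.6, Python 3.11.15). Duplexes were folded with RNAduplex of ViennaRNA 2.7.2. Alternatives included DESeq2 1.42.0. The edgeR, limma and permutation steps were tested on simulated data.

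The members, the miRNA lists and the tests were chosen with earlier results of these data known. The text names the members, entries that share a seed with them, their neighbours in level and in arm share, the 3 most and the 3 least similar miRNAs, the fixed growth and tissue lists, and the predicted m0190-3p, chosen after its values were seen. Predicted entries are named by their number, without the class prefix. Libraries of 1 group are pools of different colonies as far as the paper states, so that p-values measure the spread between such pools. Each pair of replicates differed by more than sampling noise. Replicate numbers are shared by the groups without a stated link.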

Additional observations from a re-analysis of the deposited data

How the results depend on the processing

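Bantam-x kept its direction in all 6 comparisons under each alternative and each omitted library. In D20 against CK it was called with DESeq2 (log2 fold change -1.33) and with the CK and D20 libraries alone (-1.36), and not under the other alternatives. The arm ratio in D20 against CK was called with the hairpins limited to those with 2 honeybee entries and bantam (-1.25), where 3 of 9 hairpins were called in limma and the unadjusted p was 0.00895, against 0.00730 over the 50, so that the call comes from adjusting over fewer hairpins. The difference of ame-bantam-3p changed sign in D30 against D20 with library totals only (0.060), with miRNAs counted in each library (0.012), with the kind of library by read quality (0.29) and with limma on log2(TPM + 1) (0.033) or log2(TPM + 0.01) (0.033), in D20 against CK without a count filter (0.012) and in D10 against CK with the kind of library (-0.017), none of them called. The cause was not tested. When single libraries were left out, the log2 fold change of ame-bantam-3p ranged from -0.34 to 0.54 in D10 against CK, -0.18 to 0.093 in D20 against CK, -0.20 to 0.10 in D30 against CK, -0.53 to 0.27 in D20 against D10, -0.62 to 0.25 in D30 against D10 and -0.17 to 0.087 in D30 against D20. That of bantam-x ranged from -1.47 to -1.16 in D20 against CK and from -1.11 to -0.64 in D30 against CK. The arm ratio ranged from -0.80 to 0.057 in D10 against CK, -1.38 to -1.09 in D20 against CK and -0.81 to 0.038 in D30 against D10, and the share of its spread between the 4 groups from 51.6% to 83.0%. With a replicate block, bantam-x in D20 against CK was -1.32 (adjusted p = 0.489 from edgeR), and no call on either arm or on the ratio changed. Same-numbered libraries deviated together (r above 0.1) in 5 of 18 pairs, and 3 of 12 libraries correlated best with their own number. This check showed no pairing by number. It cannot exclude that same-numbered libraries share a colony, since colonies that differ little could give the same values. DESeq2 called 6, 2, 1, 5, 2 and 0 miRNAs in D10, D20 and D30 against CK, D20 and D30 against D10 and D30 against D20. Its own filter left 299, 391, 688, 356, 286 and 688 miRNAs to adjust over, in that order. The quasi-likelihood test called 0 of 787 in each. With the replicate block 1 was called in D30 against CK and 1 in D30 against D10. With the kind of library 24 were called in D30 against D10 and 66 in D30 against D20. With only 2 groups in the fit, 2 of 557 tested miRNAs were called in D10 against CK, 3 of 541 in D20 against CK and 2 of 551 in D20 against D10. Summing near-identical or same-seed entries was not run for bantam-x, which has none. The 12 to 63 counts of bantam-x per library limit its precision.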

Other observations

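A predicted miRNA, m0190-3p, holds the first 19 bases of ame-bantam-3p, shown in capitals, after 3 further bases at its 5′ end, which gives it another seed.
m0190-3p: ttcTGAGATCATTGTGAAAGCT
It had 27 counts over the 12 libraries, at most 6 in a library and 0 in 4 of them, namely CK-1, CK-2, D30-1 and D30-3. It was not in the sums of bantam entries given above.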
